A study of Mus musculus with 2 samples.

Results

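Expression of 10 genes that regulate or mark the epithelial-mesenchymal transition was compared between mouse E14 embryonic stem cells (ESCs) and E14-Sox2 TA/WT cells (TA/WT cells for short). The genes were Snai1, Snai2, Zeb1, Zeb2, Twist1, Twist2, Vim, Fn1, Cd44 and Ovol2, and each matched 1 of the 24532 genes in the deposited table. They were chosen by symbol for their known role in the transition, with earlier results of these data known. E14 is an established mouse ESC line, wild type at Sox2, cultured with serum and leukemia inhibitory factor (LIF). The TA/WT cells come from a clone derived from that line, with the T258A change in 1 Sox2 allele introduced by CRISPR/Cas9 with a single-stranded DNA donor, while the other allele is wild type. This clone was selected and maintained in serum and LIF with 2i (the Mek inhibitor PD0325901 and the Gsk3 inhibitor CHIR99021) and was used at passages after 2i had been removed. Each genotype had 1 polyadenylated RNA library, so genotype, clone and culture history cannot be told apart, differences could not be set against a spread between replicates and are given without p-values.

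The epithelial-mesenchymal transition is the process by which epithelial cells lose their cadherin junctions and polarity and become migratory, as in gastrulation and neural crest formation. The Snail proteins (Snai1, Snai2) and Zeb proteins (Zeb1, Zeb2) are zinc finger factors that bind E-box sequences and repress epithelial genes such as Cdh1, and the Twist proteins are basic helix-loop-helix factors that act in the same process. Ovol2 is a zinc finger repressor of Zeb1 that maintains the epithelial state. Vim (vimentin, an intermediate filament), Fn1 (fibronectin, a matrix glycoprotein) and Cd44 (a hyaluronan receptor) are commonly used as markers of the mesenchymal state. Mouse ESCs grow as compact colonies held by E-cadherin.

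The libraries held 60263536 read counts in E14 and 44609228 in TA/WT cells. The 10 genes took 65368 reads (0.108%) in E14 and 68101 reads (0.153%) in TA/WT cells, nearly all of them from Fn1 and Vim. Sox2 itself had 28936 and 14270 reads, or 373 and 274 TPM (transcript abundance per transcript length, scaled to the same sum in each library), with a log2 ratio of -0.44. The gene-level table does not show the edited codon, so the Sox2 level does not check the genotype labels. All 13 markers of pluripotent ESCs were above 100 TPM in both libraries, from 106 TPM for Tfcp2l1 in E14 to 6877 TPM for Dppa5a in E14. Among them 1, Nanog, with 527 TPM in E14 and 251 TPM in TA/WT cells, was lower by more than 2-fold and 0 were higher. Of all 9094 genes with at least 10 TPM in a library, 4.07% were lower and 4.17% higher by more than 2-fold.

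The Zeb factors are known targets of the miR-200 family of microRNAs, and the mature sequences of its 5 members are shown to define the seeds that were looked for in the 10 genes. Sequences are from RefSeq and are written 5′ to 3′, with the seed (bases 2 to 8) in capitals. The first pair shares 1 seed and the other three share another.
mmu-miR-200a-3p: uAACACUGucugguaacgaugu
mmu-miR-141-3p: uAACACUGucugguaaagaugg
mmu-miR-200b-3p: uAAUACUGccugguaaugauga
mmu-miR-200c-3p: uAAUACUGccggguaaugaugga
mmu-miR-429-3p: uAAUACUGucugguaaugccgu
A match to the first seed (the letters CAGTGTT in the transcript) occurred 4 times in the 3′ untranslated region of Zeb1 and 4 times in that of Zeb2. It occurred 1 time each in Snai2 and Fn1 and was not found in the other 6 genes. A match to the second seed (CAGTATT) occurred 5 times each in Zeb1 and Zeb2, 1 time each in Snai1, Snai2 and Fn1, and was not found in the other 5 genes. By comparison, 17.2% of 20983 mouse 3′ untranslated regions (GENCODE, the longest of each gene) held the first match and 13.3% held the second, and among the 10233 regions of at least 1000 bases the shares were 29.6% and 23.1%. These are matches of letters, on the sense strand of the transcript only, and not sites of binding. The mature microRNAs were not measured by these polyadenylated libraries. The 8 microRNA genes of this pathway that the table lists, including those of the miR-200 family, had at most 2 reads each.

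Snail and Zeb proteins bind the E-box CAGGTG, which was searched on both strands in a window of 250 bases before and 50 bases after the start of each gene. Of 27025 genes with a RefSeq promoter (GRCm38.p6), 20% had at least 1 such E-box. Among the 7 transition genes with an entry, Snai1 had 1, beginning 126 bases before the start, and the other 6 had none. The 250 bases before the start are shown for Snai1, for Zeb2, the gene with the largest ratio among the 10, and for Epcam, an epithelial adhesion gene that had 2 E-boxes, beginning 187 and 19 bases before the start. Of the other epithelial genes searched that had an entry, Crb3 had 4 E-boxes in the window, Dsp 1 and Cldn7 0. Their log2 ratios (TA/WT over E14) were -0.08, 2.05 and 0.47 (Crb3 and Cldn7 named after their values were seen). A link of E-boxes with expression was not tested. Capitals mark the E-box, which is written CACCTG where it lies on the opposite strand.
Snai1, chr2:167537945-167538194, plus strand: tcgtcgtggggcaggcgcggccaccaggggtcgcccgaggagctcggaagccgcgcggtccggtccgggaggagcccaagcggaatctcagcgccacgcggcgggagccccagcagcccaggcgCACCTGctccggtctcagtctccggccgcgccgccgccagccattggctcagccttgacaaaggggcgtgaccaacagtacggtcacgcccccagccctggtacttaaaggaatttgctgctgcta
Zeb2, chr2:45117443-45117692, minus strand: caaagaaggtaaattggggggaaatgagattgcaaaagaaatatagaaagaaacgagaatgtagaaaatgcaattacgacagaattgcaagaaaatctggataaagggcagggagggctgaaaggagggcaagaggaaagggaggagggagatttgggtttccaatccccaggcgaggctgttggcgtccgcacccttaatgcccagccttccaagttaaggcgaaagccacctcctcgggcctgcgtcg
Epcam, chr17:87635729-87635978, plus strand: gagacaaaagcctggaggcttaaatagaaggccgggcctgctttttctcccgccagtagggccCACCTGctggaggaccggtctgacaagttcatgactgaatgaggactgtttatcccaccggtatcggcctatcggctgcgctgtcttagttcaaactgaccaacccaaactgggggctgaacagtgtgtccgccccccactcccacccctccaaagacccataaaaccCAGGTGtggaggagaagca
The sequence of Snai1 holds the only E-box found before a start among the 7 genes, and that of Zeb2 has none of these letters.

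Among the 10 genes, Zeb2 and Cd44 had upregulated expression and Snai2 downregulated expression in TA/WT cells by more than 2-fold, and all 3 were expressed at low levels. A gene was called when its TPM ratio was more than 2-fold and its level at least 10 TPM in 1 or both libraries. At that level 3 of the 10 genes could be called (Zeb1, Vim and Fn1) and 0 were, beside 4.17% of the 9094 genes tested called higher, 4.07% called lower and 8.24% in either direction. With a minimum of 1 TPM, 9 of the 10 genes could be called, of which 2 were higher and 1 was lower. Zeb2 reached this minimum in TA/WT cells only and Snai2 in E14 only. Of all 13729 genes at that minimum, 6.45% were called higher and 9.95% lower, and 16.4% in either direction. The whole counting interval was past 2-fold for 2 of the 9 genes, both higher (Zeb2 and Cd44), beside 4.28% of all genes higher and 6.02% lower, and for 0 of the 3 genes with at least 10 TPM, beside 3.23% higher and 3.14% lower. In all, 7 of the 10 genes had a higher TPM in TA/WT cells and 3 a lower one. Of all genes with at least 10 TPM, 57.3% had a higher TPM in TA/WT cells. The median log2 ratio of the 10 genes, with 0.1 TPM added, was 0.47, and that of all 18140 genes with reads was -0.01. In bulk RNA, more or fewer cells of a type and more or less RNA per cell cannot be told apart.

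**Figure D1:**
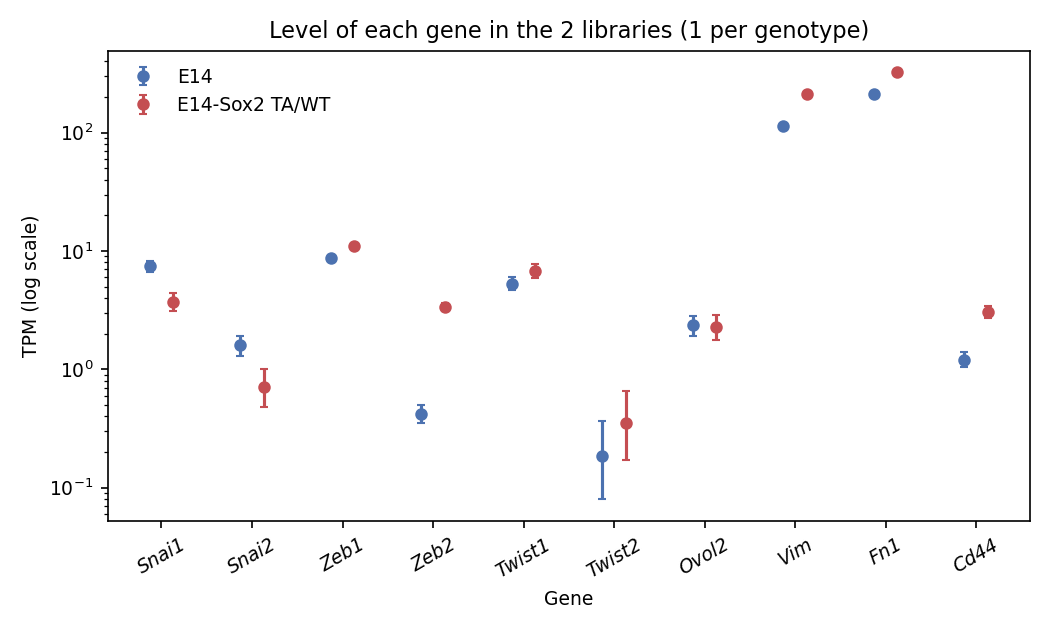
TPM (log scale) of each of the 10 genes in E14 (blue) and TA/WT cells (red), 1 library each, with exact Poisson 95% intervals that cover counting error only. Fn1 and Vim lie above 100 TPM in both libraries and the other 8 genes below 12 TPM, with Zeb2 moving from 0.42 to 3.34 TPM and Snai1 from 7.43 to 3.72 TPM.

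In the order of TPM levels, Fn1, Vim and Zeb1 came first in both libraries. In E14 they were followed by Snai1, Twist1, Ovol2, Snai2, Cd44, Zeb2 and Twist2, where the counting intervals of Ovol2 and Snai2, of Snai2 and Cd44, and of Zeb2 and Twist2 overlapped. In TA/WT cells the order after Zeb1 was Twist1, Snai1, Zeb2, Cd44, Ovol2, Snai2 and Twist2. There each neighbour from Snai1 to Ovol2 overlapped the next, as did Snai2 and Twist2. Fn1 alone accounted for 60.1% of the summed TPM of the 10 genes in E14 and 56.8% in TA/WT cells, and Vim for 32.2% and 37.7%.

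Both Snail genes among the 10 were lower in TA/WT cells. Another Snail gene, Snai3, is not among the 10 and was higher, short of 2-fold. Snai3 had 352 and 323 reads, or 7.03 and 9.61 TPM, a log2 ratio of 0.45 (0.23 to 0.67), and was named after its values were seen. Snai1 (Entrez 20613, chr2:167538195-167542814, plus strand, mm10), the repressor of Cdh1 needed for gastrulation, had 379 reads in E14 and 128 in TA/WT cells. These were 7.43 TPM (95% counting interval 6.7 to 8.22) and 3.72 TPM (3.11 to 4.43). The intervals of the levels did not overlap, and the log2 ratio was -1.0 (-1.30 to -0.71). This ratio fell just short of the 2-fold threshold, and it was past it under the other 5 ways of scaling the libraries, the lowest being -1.14. Removing a trend with transcript length and GC content gave -0.76.

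Snai2 (Slug, Entrez 20583, chr16:14705852-14709395, plus strand), the paralog used in neural crest migration, had 101 and 30 reads. Its levels were 1.59 TPM (1.30 to 1.93) in E14 and 0.707 TPM (0.477 to 1.01) in TA/WT cells. It was therefore 2.25-fold lower, a log2 ratio of -1.17 with an interval of -1.81 to -0.57 that crosses the 2-fold threshold. Adding a pseudocount of 1 TPM reduced this ratio to -0.60. Together Snai1 and Snai2 had 480 reads in E14 and 158 in TA/WT cells, and 9.02 and 4.43 TPM. The ratio of Snai2 to Snai1 inside a library was 0.214 (0.170 to 0.267) in E14 and 0.190 (0.123 to 0.284) in TA/WT cells, so the balance of the paralogs differed by less than the counting error. Of all genes with at least 1 TPM, 9.99% had a ratio as low as that of Snai1 and 8.07% as low as that of Snai2.

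The Zeb genes differed in the other direction, and unequally. Zeb2 (Sip1, Entrez 24136, chr2:44983512-45117442, minus strand), a Smad-interacting repressor that acts in neural induction and the neural crest, had 123 reads in E14 and 641 in TA/WT cells. Its level was 0.42 TPM (0.349 to 0.502) in E14 and 3.34 TPM (3.09 to 3.61) in TA/WT cells. The 7.95-fold difference, a log2 ratio of 2.99 (2.71 to 3.28), was the largest among the 10 genes, and 109 genes (0.794% of those with at least 1 TPM) had a ratio as high. In E14 its level was below 1 TPM and its interval overlapped that of Twist2, the lowest of the 10.

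Reads of Zeb2 could include those of the noncoding RNA Zeb2os, which lies inside the span of Zeb2 at chr2:45111138-45114087. Zeb2os had 0 reads in E14 and 14 in TA/WT cells, and 2.26% of the 50-base stretches of Zeb2 transcripts also occur in transcripts of other genes. The handling of strand in the counts was not stated. A pseudocount of 1 TPM reduced the log2 ratio of Zeb2 to 1.61, still past 2-fold.

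Zeb1 (Entrez 21417, chr18:5591327-5775468, plus strand), the other Zeb repressor, had 1598 and 1360 reads, or 8.73 TPM (8.31 to 9.17) in E14 and 11.1 TPM (10.5 to 11.7) in TA/WT cells. Its log2 ratio of 0.35 (0.24 to 0.45) was short of the threshold, 28.2% of all genes had a ratio as high, and it was 0.03 after the length and GC trend was removed. Inside a library, Zeb1 was 20.8 times the level of Zeb2 in E14 and 3.32 times in TA/WT cells. Zeb2 thus provided 4.59% of the summed Zeb1 and Zeb2 level in E14 and 23.1% in TA/WT cells. The sum of both was 9.15 TPM in E14 and 14.4 TPM in TA/WT cells.

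The Twist genes showed smaller differences. Twist1 (Entrez 22160, chr12:33957671-33959831, plus strand), a mesodermal and neural crest factor, had 273 and 234 reads, or 5.31 TPM (4.70 to 5.98) and 6.78 TPM (5.94 to 7.70). The 2 intervals overlapped marginally, and the log2 ratio of 0.35 (0.09 to 0.61) was short of 2-fold. Twist2 (Entrez 13345, chr1:91801461-91848034, plus strand), a factor of dermal and skeletal mesenchyme, had 8 reads in E14 and 10 in TA/WT cells. At 0.185 and 0.354 TPM it was the gene that did not reach 1 TPM in either library, and its log2 ratio of 0.94 had an interval from -0.55 to 2.48. A difference in Twist2 was not detectable at this depth, and 45.7% of its 50-base stretches also occur in transcripts annotated to another gene.

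Ovol2 (Entrez 107586, chr2:144305175-144332080, minus strand), the epithelial-state repressor among the 10, had 109 and 71 reads. Its level was 2.35 TPM (1.93 to 2.83) in E14 and 2.27 TPM (1.77 to 2.86) in TA/WT cells. The intervals overlapped nearly whole, and the log2 ratio was -0.05 (-0.50 to 0.40), so a difference inside this interval was not detectable at this depth. The sign changed to 0.28 when the length and GC trend was removed. The level of Ovol2 was 5.58 times (4.27 to 7.28) that of Zeb2 in E14 and 0.679 times (0.524 to 0.869) in TA/WT cells, so the 2 genes changed order. The 6 Snail, Zeb and Twist genes among the 10 together had 23.7 TPM in E14 and 26.0 TPM in TA/WT cells.

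**Figure D2:**
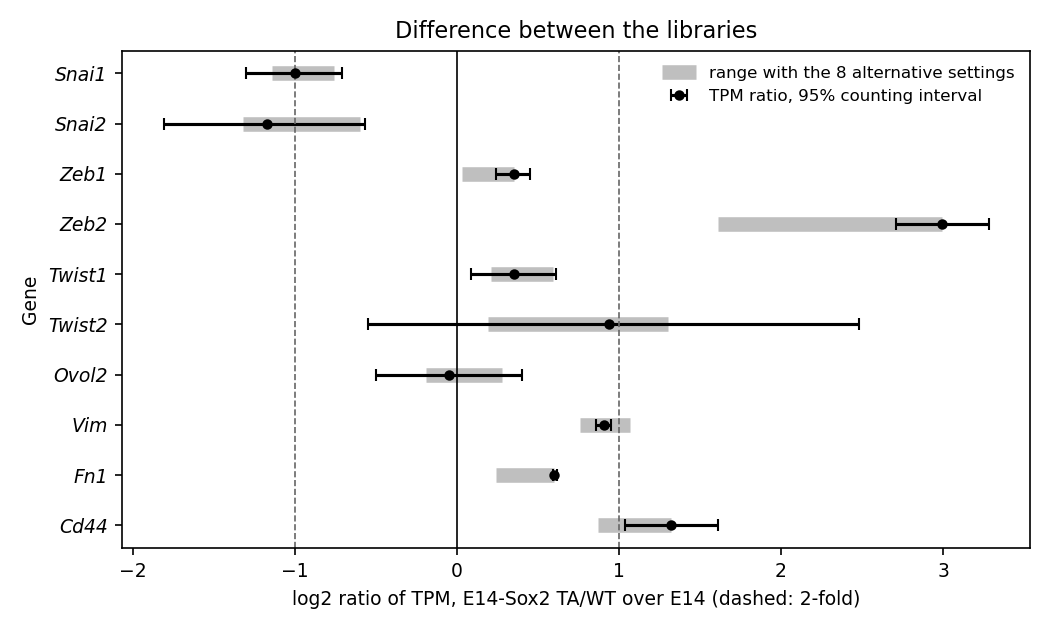
Log2 ratio of TPM (E14-Sox2 TA/WT over E14) of the 10 genes, with exact 95% counting intervals (black) and the range of the ratio with the 8 alternative settings (grey). The intervals of Zeb2 and Cd44 lie wholly past the dashed 2-fold line, those of Snai1 and Snai2 cross it, and the grey range of Ovol2 crosses 0.

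Vim, Fn1 and Cd44 were all higher in TA/WT cells, with Cd44 past 2-fold. Vim (Entrez 22352, chr2:13574311-13582826, plus strand), the filament protein of mesenchymal cells that ESCs in culture also express, had 6590 and 8286 reads. This was 114 TPM (111 to 117) in E14 and 214 TPM (209 to 219) in TA/WT cells. At 1.88-fold, a log2 ratio of 0.91 (0.86 to 0.95), the whole interval was below the 2-fold threshold, and 5.39% of genes with at least 10 TPM had a ratio as high. With the length and GC trend removed the log2 ratio was 1.07, past 2-fold.

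Fn1 (Entrez 14268, chr1:71585473-71653280, minus strand), the matrix protein bound by the alpha5 beta1 integrin, was the most abundant of the 10 with 56017 and 57056 reads. The levels of 212 TPM (211 to 214) and 323 TPM (320 to 325) were 1.52-fold apart, a log2 ratio of 0.60 (0.59 to 0.62). This difference was larger than counting error and below the threshold, and it was 0.24 after removal of the length and GC trend. Vim and Fn1 moved from rank 1446 to 740 and from rank 685 to 462 of the table.

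Cd44 (Entrez 12505, chr2:102811141-102901669, minus strand), the hyaluronan receptor whose variants are associated with mesenchymal and stem-like carcinoma cells, had 170 reads in E14 and 285 in TA/WT cells. Its level was 1.21 TPM (1.04 to 1.41) in E14 and 3.04 TPM (2.70 to 3.41) in TA/WT cells. The 2.50-fold difference, a log2 ratio of 1.32 (1.04 to 1.61), was wholly past 2-fold by counting error, and was under 2-fold with a pseudocount of 1 TPM (0.87) and with the length and GC trend removed. The table joins 6 Cd44 transcripts in 1 value, so standard and variant isoforms were not separated. Of genes with at least 1 TPM, 3.75% had a ratio as high.

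**Figure D3:**
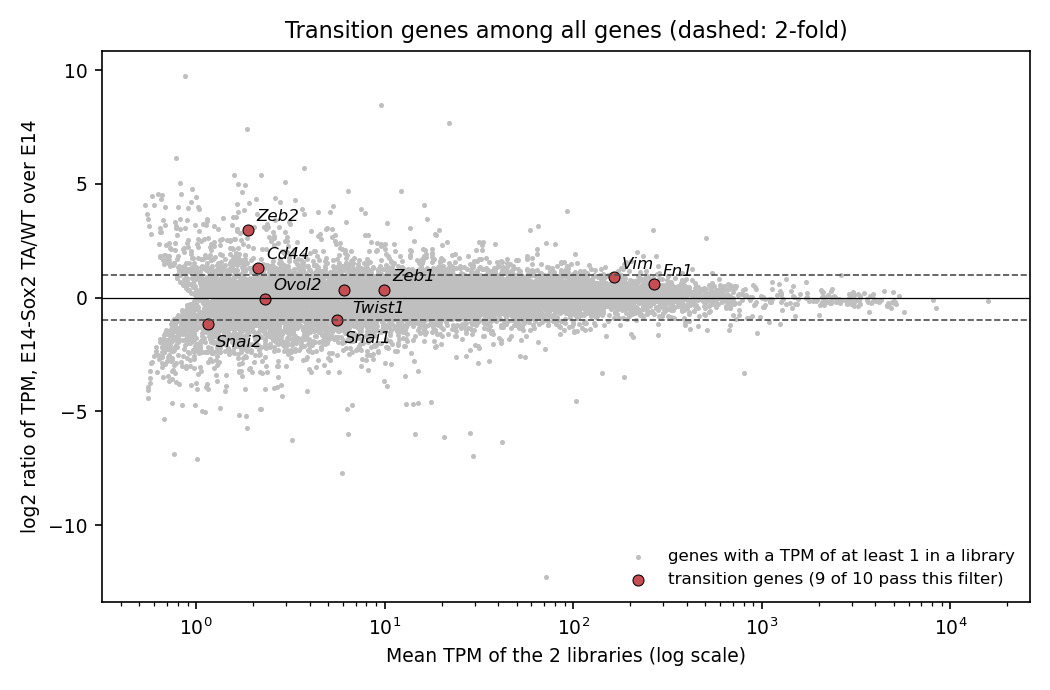
Log2 ratio of TPM against mean TPM (log scale) for genes with at least 1 TPM in 1 library and reads in both (grey), with the 9 transition genes that pass this minimum in red. Zeb2 and Cd44 lie above the upper 2-fold line, Snai2 lies below the lower line and Snai1 at it, and Vim and Fn1 lie between the lines.

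Genes on which these factors are known to act, or that mark either state, were compared next, in lists by role. The lists were chosen with earlier results of these data known, so their shares beside those of all genes only describe the lists. Of 31 epithelial genes in the table, 24 reached 10 TPM, of which 7 were higher and 1 was lower by more than 2-fold. This is 29.2% higher against 4.17% of all genes tested and 4.17% lower against 4.07%. Cdh1 (E-cadherin, the adhesion molecule of epithelia and ESC colonies) had 22469 and 30354 reads, or 161 and 325 TPM, a log2 ratio of 1.01 (0.99 to 1.04) that was under 2-fold in 6 of the 8 alternative settings. Epcam (an epithelial adhesion molecule) had 35.6 and 99.1 TPM, with a log2 ratio of 1.48. Krt19 (a simple epithelial keratin) had 10.2 and 56.4 TPM and Dsp (desmoplakin, a desmosome protein) 5.35 and 22.1 TPM, the largest ratios of the list, while Cldn3 (a tight junction claudin) was the gene called lower, at 10.3 and 4.83 TPM. Dsp reached 10 TPM in TA/WT cells only and Cldn3 in E14 only. In all 21 of the 31 had a higher and 10 a lower TPM, beside 57.3% higher among all genes with at least 10 TPM. The sum of the 31 was 1313 TPM in E14 and 1735 TPM in TA/WT cells.

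Of 35 mesenchymal genes, 11 reached 10 TPM, of which 4 were higher and 0 lower, beside 4.17% higher and 4.07% lower of all genes tested. Of these 4, Cdh2, Thbs1 and Acta2 reached 10 TPM in TA/WT cells only, so that a gene with their E14 level could enter the count only by being higher, and 1 (Tagln) was called with a minimum of 20 TPM. Cdh2 (N-cadherin) had 173 and 1165 reads, or 1.13 and 11.4 TPM, a log2 ratio of 3.33 (3.10 to 3.57). Thbs1 (thrombospondin 1, a matrix protein) had 1.91 and 18.8 TPM, Acta2 (smooth muscle actin) 2.05 and 13.7 TPM and Tagln (transgelin, an actin-binding protein) 13.1 and 117 TPM. With a minimum of 1 TPM, 8 of 27 were higher and 4 lower, beside 6.45% and 9.95% of all genes. Of the 8 higher ones 4 reached 1 TPM in TA/WT cells only, and of the 4 lower ones 2 did so in E14 only. Among the lower ones was Pdgfra (a growth factor receptor of mesenchyme and primitive endoderm, named after its values were seen) at 6.48 and 1.57 TPM. Sparc (a matrix glycoprotein, also named after its values were seen) had 287 and 146 TPM, just short of 2-fold lower. Postn, Lum and Dcn had no reads. In all 20 of the 35 had a higher and 12 a lower TPM, beside 57.3% higher among all genes with at least 10 TPM. The sum of the 35 was 540 TPM in E14 and 569 TPM in TA/WT cells. The 27 genes with at least 1 TPM were 16 higher and 11 lower, and 14 and 13 with the length and GC trend removed. The median log2 ratio with 0.1 TPM added was 0.47 over the epithelial and 0.51 over the mesenchymal genes.

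Ratios of 2 genes inside a library do not depend on how the libraries are scaled to each other, and they differed in opposite directions between pairs of mesenchymal and epithelial genes. The level of Cdh1 was 142 times that of Cdh2 in E14 and 28.5 times in TA/WT cells, a 5-fold change toward Cdh2 with Cdh1 still the larger. The ratio of Vim to Cdh1 was 0.709 (0.689 to 0.729) in E14 and 0.660 (0.644 to 0.676) in TA/WT cells, a log2 change of -0.10. Vim per Krt8 (a simple epithelial keratin) was 2.12 and 1.37, and per Krt18 (its partner keratin) 2.11 and 1.82, both keratins named after their values were seen. Vim was thus higher in TPM in TA/WT cells and lower per Cdh1, Krt8 and Krt18, whereas Cdh2 was higher per Cdh1. Such ratios can still depend on a trend with transcript length and GC content. With that trend removed, the log2 ratios of Vim, Cdh1 and Cdh2 were 1.07, 0.90 and 3.09. Vim per Cdh1 was then higher in TA/WT cells, and Cdh2 per Cdh1 was still higher. The ratio of Snai1 to Zeb1 was 0.851 (0.759 to 0.953) in E14 and 0.335 (0.278 to 0.402) in TA/WT cells.

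**Figure D4:**
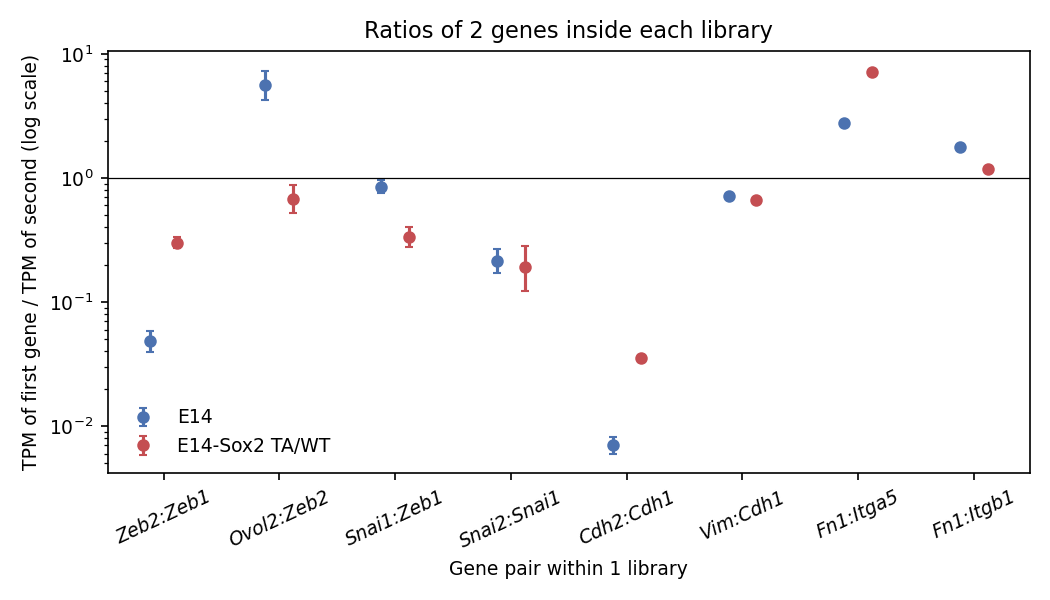
Ratio of the TPM of the first to the second gene of each pair (log scale) inside the E14 (blue) and E14-Sox2 TA/WT (red) library, with 95% counting intervals. Zeb2 per Zeb1 and Cdh2 per Cdh1 are higher in TA/WT cells, Ovol2 per Zeb2 and Snai1 per Zeb1 are lower, and the intervals of Snai2 per Snai1 overlap.

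Other factors that drive the transition were represented by 18 genes in the table. With at least 10 TPM 4 of 5 were higher and 0 lower, beside 4.17% and 4.07% of all genes tested. T (Brachyury, a factor of the primitive streak) had 62 and 606 reads, or 0.954 and 14 TPM, and so passed this minimum in TA/WT cells only. Bhlhe40 (a basic helix-loop-helix repressor) had 11.7 and 35.3 TPM, Hmga2 (a chromatin architectural protein) 18.1 and 45.0 TPM and Sox4 (a Sox factor) 14.4 and 35.9 TPM. At a minimum of 1 TPM 4 of 10 were higher and 2 lower, beside 6.45% and 9.95% of all genes. The lower ones were Foxc2 and Foxq1 (forkhead factors, named after their values were seen), with 87 and 8 reads and 655 and 120 reads. T reached 1 TPM in TA/WT cells only and Foxc2 in E14 only. The summed level of the 18 genes was 88.9 TPM in E14 and 167 TPM in TA/WT cells.

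Among 15 other factors linked to the epithelial state, not all of them repressors like Ovol2, 0 of the 5 with at least 10 TPM were higher and 1 was lower. The shares of all genes tested were 4.17% higher and 4.07% lower. The gene called lower was Elf3 (an epithelial Ets factor), with 44.4 and 22.2 TPM and a log2 ratio of -1.0, barely past the threshold. At a minimum of 1 TPM 1 of 10 was higher and 2 were lower, beside 6.45% and 9.95% of all genes. Of the 2 lower ones, Foxa1 reached 1 TPM in E14 only. The higher one was Grhl2 (a grainyhead activator of Cdh1), with 2.85 and 9.55 TPM, and the lower ones were Elf3 and Foxa1 (a forkhead factor of endodermal epithelia), with 1.27 and 0.297 TPM (Grhl2 and Foxa1 named after their values were seen). In 20 cofactors of the Snail and Zeb repressors and dimer partners of the Twist factors, 3 of the 19 with at least 10 TPM were higher and 0 lower. The shares of all genes tested were 4.17% and 4.07%. Ajuba (a LIM protein that binds Snail) had 54.6 and 117 TPM, Id2 (an inhibitor of basic helix-loop-helix factors) 18.0 and 45.9 TPM and Tcf4 (an E protein, partner of Twist) 7.71 and 16.0 TPM. Tcf4 reached 10 TPM in TA/WT cells only. The remaining 16 differed by less than 2-fold.

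The ligands, receptors and feedback inhibitors of Tgf-beta signaling, an inducer of Snail and Zeb genes, were represented by 19 genes. Of these 1 of 12 with at least 10 TPM was higher and 0 lower, beside 4.17% and 4.07% of all genes tested. The higher one was Skil (a repressor of Smad transcription), with 27.8 and 61.1 TPM. At a minimum of 1 TPM 2 of 18 were higher, Skil and the ligand Tgfb2, and 1 was lower, Ltbp3 (a latent Tgf-beta binding protein), with 3.66 and 1.38 TPM. The shares of all genes were 6.45% and 9.95%, and Tgfb2 reached 1 TPM in TA/WT cells only. Of the ligands, Tgfb1 had 11.4 and 14 TPM, Tgfb2 0.2 and 3.63 TPM (33 and 392 reads) and Tgfb3 0.358 and 0.35 TPM. The ligands and Ltbp3 were named after their values were seen.

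The receptors and binding partners of Fn1 differed in both directions. Of 11 such genes, integrin subunits among them, 3 had a higher and 8 a lower TPM, with a median log2 ratio of -0.39 (0.1 TPM added). Of these genes 6 reached 10 TPM, of which 1 was called higher and 0 lower, beside 4.17% and 4.07% of all genes tested. The called gene was Itgb1 (the beta1 subunit), with 121 and 275 TPM. The summed level of the 11, Itgb1 included, was 432 TPM in E14 and 504 TPM in TA/WT cells. At a minimum of 1 TPM 1 of 9 was higher and 1 lower, beside 6.45% and 9.95% of all genes. The lower one was Itgb3 (an integrin subunit, named after its values were seen), with 3.32 and 1.22 TPM. Itgav and Itgb5 (subunits of other fibronectin-binding integrins, named after their values were seen) had 10.4 and 17.7 TPM and 25.4 and 39.4 TPM, short of the threshold. Itga5 (the alpha5 subunit of the fibronectin receptor, named after its values were seen) had 76.3 and 44.9 TPM, also short of it. Lower and short of it too were Fbln1, with 82.8 and 49.3 TPM, and Sdc4, with 107 and 70.7 TPM (both named after their values were seen). The ratio of Fn1 to Itga5 in a library was 2.79 (2.73 to 2.84) in E14 and 7.18 (6.96 to 7.41) in TA/WT cells, and that of Fn1 to Itgb1 was 1.76 and 1.17. Of the 17 partners and ligands of Cd44, 0 of the 12 with at least 10 TPM were higher and 3 were lower, beside 4.17% and 4.07% of all genes tested. The lower ones were Spp1 (osteopontin), with 428 and 136 TPM, Srgn (serglycin), with 36.9 and 16.9 TPM, and Cd74 (the invariant chain that pairs with Cd44), with 19.8 and 8.33 TPM. Cd74 reached 10 TPM in E14 only. At a minimum of 1 TPM 1 of 14 was higher and 3 were lower, beside 6.45% and 9.95% of all genes. The higher one was Has2 (a hyaluronan synthase, named after its values were seen), with 1.85 and 7.59 TPM.

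**Figure D5:**
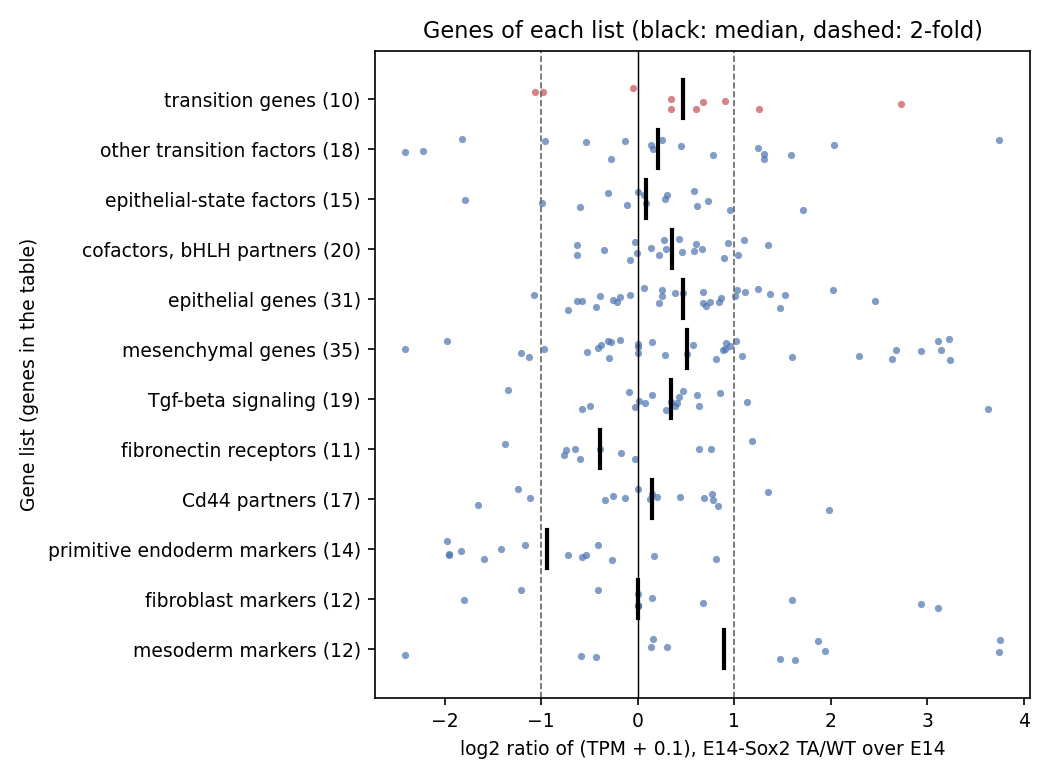
Log2 ratio of TPM with 0.1 added (E14-Sox2 TA/WT over E14) for each gene of 12 lists, 1 point a gene, with the list median as a black bar and the number of genes in the table in parentheses. The medians of the 10 transition genes (0.47), the epithelial genes (0.47) and the mesenchymal genes (0.51) lie close together, and that of the primitive endoderm markers (-0.94) lies lowest.

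Markers of other cells that an ESC culture could hold also differed between the libraries. Of 14 primitive endoderm markers 12 had a lower TPM in TA/WT cells, 7 of the 13 with at least 1 TPM were more than 2-fold lower (beside 9.95% of all genes) and 0 were higher, and their summed level was 194 TPM in E14 and 130 TPM in TA/WT cells. Of the 7 lower ones 2 reached 1 TPM in E14 only. Gata4, a defining factor of this lineage, had 15.0 and 3.80 TPM. Primitive endoderm is known to express Snai1 and Fn1, and its part in the differences was not tested. Of 12 mesoderm markers, T among them, 9 had a higher TPM, 4 of the 7 with at least 1 TPM were more than 2-fold higher (beside 6.45% of all genes) and 0 were lower. Of those 4, T, Mixl1 and Evx1 reached 1 TPM in TA/WT cells only. The sum of the list was 141 and 194 TPM, of which Lefty2 (a Nodal inhibitor that ESCs express too), not called, gave 130 and 161 TPM. Mesoderm is known to express Cdh2, Fn1 and Vim, and its part was not tested either. Of 12 fibroblast markers, which include Twist2, the defining genes Dcn, Lum, Postn and Fap had 0 reads in both libraries, and 5 had a higher and 3 a lower TPM. Of the 6 with at least 1 TPM, 2 were more than 2-fold higher and 2 lower, beside 6.45% and 9.95% of all genes. Both higher ones reached 1 TPM in TA/WT cells only. The higher ones were Col3a1 (a fibrillar collagen), with 0.0799 and 1.28 TPM, and S100a4 (a calcium-binding protein), with 0.255 and 2.98 TPM, and the lower ones were Thy1 and Pdgfrb (a growth factor receptor), with 6.75 and 2.85 TPM for Pdgfrb. Col1a2 (a collagen), under 1 TPM, had 0.259 and 0.985 TPM. The sum of the list was 54.4 TPM in E14 and 25.9 TPM in TA/WT cells, of which Thy1 gave 40.1 and 11.4 TPM. The part of fibroblasts in the differences was not tested. The collagens, S100a4, Pdgfrb, Mixl1, Evx1 and Lefty2 were named after their values were seen.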

How the data were processed

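Polyadenylated RNA was sequenced from the parental E14 line and the E14-Sox2 TA/WT clone (TA/WT cells), 1 library each. The authors deposited 1 mm10 gene table with a raw read count, FPKM (scaled to transcript length and to sequenced fragments) and TPM per gene and library. The submitters' processing notes name bcl2fastq 2.20.0, Trimmomatic, HISAT2 2.1.0 and StringTie 2.1.3b without their roles, and the builds hg19 and mm10. The handling of strand and of reads that map to several genes is not given in the sources used here. Reads of overlapping genes or of genes sharing sequence may therefore have been split, which was not tested. In 0 of the 10 transition genes did TPM depart from a constant multiple of FPKM. This compares the 2 measures only and cannot show how reads were assigned.

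The ratio of deposited TPM (TA/WT over E14) was taken without a pseudocount, following the study's filter of 10 TPM in at least 1 library and more than 2-fold, and again at 1 TPM. Exact 95% intervals (Clopper-Pearson for ratios, Poisson for levels) were computed from read counts and placed on the TPM scale. They cover counting error only and take reads as independent, so PCR copies of the same molecule would make them too narrow. A floor of 3 reads was 0.0498 CPM (counts scaled to the library total) in the parental library and 0.0673 CPM in the other. The members and gene lists were chosen with earlier results of these data known. Named besides the 10 genes were Sox2, Cdh1, Epcam, Cdh2 and, from each list, all genes called at 10 TPM when at most 4, otherwise the 2 highest and 2 lowest ratios called; other genes are said to be named after their values were seen. Gene coordinates and promoters were taken from RefSeq for GRCm38.p6, and transcript length, GC content and the longest 3′ untranslated region of each gene from GENCODE transcripts.

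Alternatives were TMM scaling (edgeR 4.0.16), median-of-ratios scaling (DESeq2 1.42.0), CPM, a centred ratio, FPKM, pseudocounts of 0.1 and 1 TPM, removal of a length and GC trend fitted on 13513 genes, a wholly passing interval, and other minima and folds. The ratio and interval calculation was run on simulated independent Poisson counts scaled by library totals. These counts follow the model that the intervals assume, so spread between replicates and the placing on the TPM scale were not tested. Python 3.11.15 with numpy 2.4.6, pandas 2.3.3 and scipy 1.17.1 and R 4.3.3 were used.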

Additional observations from a re-analysis of the deposited data

How the results depend on the processing

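No paired analysis was possible because each genotype had 1 library and the labels carry no replicate numbers, and no replicate could be left out. At 10 TPM, where 0 of the transition genes were called, 1 was higher with the length and GC trend removed (Vim), 2 were higher and 1 lower without a filter on low values, and 2 were higher at 1.5-fold (Fn1 and Vim). At 1 TPM, where 2 were higher and 1 lower, 2 were lower with TMM, median-of-ratios, CPM, centred and FPKM ratios, each adding Snai1. With a pseudocount of 1 TPM 1 was higher (Zeb2) and 0 lower, and 0 were lower when the whole counting interval had to pass. With minima of 5 and of 20 TPM 0 were higher and 0 lower, since the called genes no longer entered. At 1.5-fold 4 were higher and 2 lower, and at 3-fold 1 was higher (Zeb2) and 0 lower. Of the epithelial genes, 7 higher and 1 lower, 4 were higher with CPM and with FPKM, 11 were higher and 3 lower at 1.5-fold, and 2 higher and 0 lower at 3-fold. There 0 were lower with a pseudocount of 1 TPM, the trend removed, a wholly passing interval or 20 TPM. Of the mesenchymal genes, 4 higher and 0 lower, 1 was lower (Sparc) with TMM, median-of-ratios, CPM, centred and FPKM ratios and at 1.5-fold, where 7 were higher. Without a filter 12 were higher and 4 lower, at 5 TPM 2 were lower, and at 20 TPM 1 was higher. The remaining causes were not tested. CPM (counts scaled to the library total) and FPKM shifted the median log2 ratio of all genes by -0.14. Among the 10 genes, Ovol2 was the gene whose sign changed, to 0.28 with the trend removed. Depth limited Twist2 (8 and 10 reads) and Snai2 (101 and 30 reads), and the spread between cultures was not measured.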

Other observations

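Vimentin belongs to the intermediate filament family, and other members of that family and their linkers differed in both directions. Of 14 such genes 11 reached 10 TPM, of which 3 were higher and 1 was lower by more than 2-fold in TA/WT cells. The shares of all genes tested were 4.17% higher and 4.07% lower. Nes (nestin, a filament of neural progenitors that assembles with vimentin) had 6.67 TPM in E14 and 36.2 TPM in TA/WT cells, a log2 ratio of 2.44, and so reached this minimum in TA/WT cells only. Ina (internexin, a neuronal filament) had 10 and 29.4 TPM and Macf1 (a linker of filaments to microtubules and actin) 18.9 and 41.7 TPM. Prph (peripherin, a filament of peripheral neurons) was the gene called lower, at 50.6 and 11.6 TPM. The median log2 ratio of the list with 0.1 TPM added was 0.52, against -0.01 over all genes with reads.

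Of 11 markers of the neural crest, the tissue in which Snai2, Twist1 and Zeb2 act in the embryo, 2 reached 10 TPM. Of these 1 was higher and 0 lower, beside 4.17% and 4.07% of all genes tested. Foxd3, a factor of both ESCs and neural crest, had 2.65 TPM in E14 and 14.3 TPM in TA/WT cells, reaching 10 TPM in the latter only. At 1 TPM 3 of 8 were higher and 0 lower, beside 6.45% and 9.95% of all genes, and 1 of the 3 reached 1 TPM in TA/WT cells only. Over the whole list 4 had a higher and 6 a lower TPM and Tfap2b had no reads. Their summed level was 34.8 TPM in E14 and 44.1 TPM in TA/WT cells.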
